A study of Mus musculus with 71 samples.

Results

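The HoxD cluster is a run of 9 homeobox genes on mouse chromosome 2, from Hoxd13 at 1 end to Hoxd1 at the other, and Evx2 is a homeobox gene that lies beside Hoxd13. These 10 genes were chosen by name. A chromatin loop was taken as theirs when 1 of its anchors lay within 2 kb of a transcription start site (TSS) of a member in the GENCODE annotation, and loops that touched the span from the first base of Hoxd13 to the last base of Hoxd1 on mm10 (96.83 kb) were also followed. Of the 24244 loops in the list, 36 met the promoter rule and 38 touched the cluster, and the 38 include all of the 36. The loops come from H3K27ac HiChIP, which enriches contacts between stretches of chromatin that carry acetylated lysine 27 of histone H3, a mark of active promoters and enhancers. The tissue was synovial sarcoma (SyS) from 2 mouse tumors that express human SS18::SSX2 (hSS2). The hSS2 allele sits in Rosa26 behind a floxed stop cassette, and the tumors followed injection of TATCre, a recombinase protein, into the hindlimb at 8 days of life. No untreated or control chromatin was measured by HiChIP, and the loops of the tumors had been merged by the authors, so the values below have no replicate error and no test between conditions was made.

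Hox genes encode transcription factors that give cells their position along the body axis and the limb, and their order on the chromosome follows the order in which they are used. In limb development the HoxD cluster lies between a pair of regulatory landscapes. The landscape on the side of Evx2 and Lnpk is known to contact the genes at the Hoxd13 end in the forming digits, and the landscape on the side of Mtx2 is known to contact the genes nearer Hoxd1 in the forming arm and forearm. Below, the flanks are called the Evx2 side (lower coordinates) and the Mtx2 side (higher coordinates).

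Each loop of the list has a count of tags, the read pairs that join its anchors, and a false discovery rate (FDR). The list holds 41574 tags and is made of 2 parts, each sorted by position, of 13683 and 10561 loops and of 28657 and 12917 tags. Neither part is labelled with a tumor, and so they are called part 1 and part 2 here. Tags of 22 HoxD loops (33 tags) came from part 1 and of 16 (18 tags) from part 2, which is 11.5 and 13.9 per 10000 tags of each part. Of the 38 loops 30 rested on a single tag (78.9%, against 78.0% of all loops). Intervals below cover counting error only. In bulk tumor chromatin, fewer cells with a contact and fewer contacts per cell cannot be told apart, and loops give no expression level with which to check the tumor against cell type markers.

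All of the HoxD loops left the cluster. They held 51 tags (exact Poisson 95% interval 38.0 to 67.1), of which 15 (8.40 to 24.7) ran to the Evx2 side in 13 loops and 36 (25.2 to 49.8) to the Mtx2 side in 25 loops. The share of tags on the Evx2 side was thus 29.4% (Wilson 95% interval 18.7 to 43.0). The loops were long, with a median distance between anchor midpoints of 821.9 kb against 500.3 kb over the whole list, and ranged from 114.3 kb to 1428 kb. The highest FDR in the list was 0.05. Of the HoxD loops 8 had an FDR under 0.01 and 7 under 0.001, and the 30 loops of a single tag lay between 0.0118 and 0.048. Over the list, 15.2% of loops had an FDR under 0.01.

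**Figure D1:**
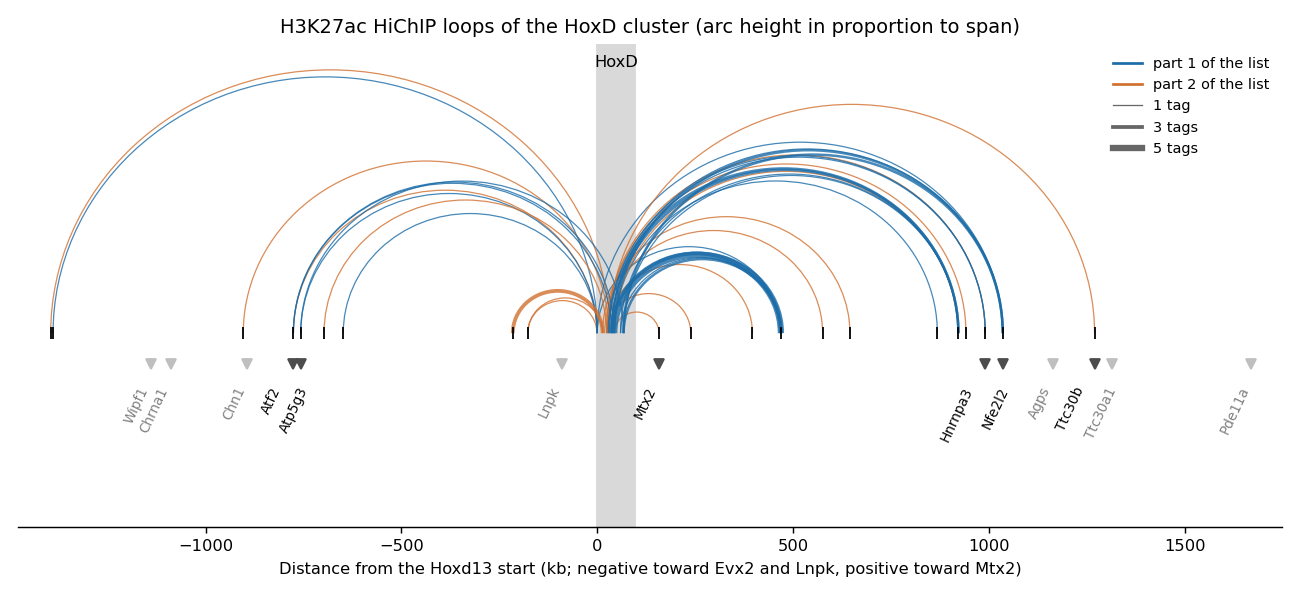
Each arc is 1 loop between the HoxD cluster (gray band) and a distal anchor (tick), drawn by distance in kb from the start of Hoxd13, with line width by tags and color by part of the list. Triangles mark starts of flanking genes, dark where a loop reached them. The 36 tags on the Mtx2 side gather at a few anchors, and the 15 on the Evx2 side are spread from 176 to 1392 kb away.

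Of the 10 members, 7 had a loop and 3 had none. The background over protein-coding genes was 45.8% with at least 1 loop, and over all GENCODE genes 23.9%. The share among members was 70.0% (Wilson 39.7 to 89.2), an interval that includes the protein-coding background. The median loop score, which is the sum of the tags of a gene's loops, was 7 over the 7 looped members and 4 over all looped genes.

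Evx2 (chr2:74652991-74659557), Hoxd12 (chr2:74675013-74677705) and Hoxd1 (chromosome 2, first base 74762980) had no loop in the list, and the result was the same with a window of 5 kb around the TSS. The nearest anchor of any loop lay 6.65 kb from the TSS of Evx2, 5.36 kb from that of Hoxd12 and 26.3 kb from that of Hoxd1. Anchors lay on both sides of Evx2, at Hoxd13 and at chr2:74648071-74650942. The latter joined in 2 loops of 1 tag each to intergenic anchors at chr2:73969506-73972335 and chr2:74018712-74021285, both in part 2. Haglr, the long noncoding RNA gene between Hoxd3 and Hoxd1, had no loop either. The list keeps loops up to an FDR of 0.05, so the absence of a loop does not give a level. With an FDR under 0.01, Hoxd13 and Hoxd10 had no loop either.

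The members at the Hoxd13 end were joined to both flanks. Most tags of Hoxd13 (71.4%, Wilson 35.9 to 91.8) and Hoxd11 (80.0%, 37.6 to 96.4) ran to the Evx2 side, with intervals that include an even split. Hoxd13 (chromosome 2, last base 74671599), which patterns the digits, had a loop score of 7 (exact Poisson 2.81 to 14.4) from 7 loops of 1 tag each. Of these, 5 tags ran to the Evx2 side and 2 to the Mtx2 side. The Evx2-side partners were the start of Atf2 (775.2 kb between midpoints), the start of Atp5g3 (757.2 kb), an anchor in the body of Sp9 (1390 kb), and intergenic anchors 176.6 and 648.6 kb away. Part 1 gave 5 of the tags, through an anchor at chr2:74667546-74669656, and part 2 gave 2, through the overlapping anchor chr2:74666204-74669506.

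Hoxd11 (chr2:74679557-74687016) had a loop score of 5 (1.62 to 11.7), all in part 2, with 4 tags to the Evx2 side and 1 to the Mtx2 side. Its anchor at chr2:74681044-74683516 covers the downstream of its 2 GENCODE starts. A single loop of 3 tags (FDR 1.8e-05) joined it to an intergenic anchor at chr2:74451954-74454061, 229.3 kb away and 79.0 kb from the nearest TSS, that of Lnpk. This was the only Evx2-side loop with more than 1 tag. Both Hoxd11 and Hoxd13 also reached the intergenic anchor at chr2:74490264-74492221 with 1 tag each in part 2.

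The promoter sequences of Hoxd13 and Hoxd11, the starts with mostly Evx2-side loops, are shown with the 300 bases at the middle of the partner that gave Hoxd11 its 3 tags. Promoter sequences here and below are those of RefSeq (GRCm38.p6), 300 bases around the start. Capitals mark GATC, the site of MboI, which cut the chromatin, and any match to the CTCF-like core CNAGGNGGC on either strand. CTCF is the protein that anchors many chromatin loops.
Hoxd13 promoter, chr2:74667975-74668274, plus strand: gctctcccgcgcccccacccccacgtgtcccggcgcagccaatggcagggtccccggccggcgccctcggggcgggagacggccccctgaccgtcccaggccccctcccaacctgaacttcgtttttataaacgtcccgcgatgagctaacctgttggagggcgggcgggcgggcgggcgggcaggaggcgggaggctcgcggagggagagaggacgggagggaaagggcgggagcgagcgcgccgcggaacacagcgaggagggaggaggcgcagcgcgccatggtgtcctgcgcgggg
Hoxd11 promoter, chr2:74682073-74682372, plus strand: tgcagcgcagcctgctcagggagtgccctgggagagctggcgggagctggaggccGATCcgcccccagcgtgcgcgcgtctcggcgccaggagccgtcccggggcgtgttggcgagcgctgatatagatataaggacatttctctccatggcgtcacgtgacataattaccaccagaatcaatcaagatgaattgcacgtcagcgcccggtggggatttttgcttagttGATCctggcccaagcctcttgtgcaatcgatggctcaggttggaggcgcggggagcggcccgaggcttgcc
Hoxd11 partner, chr2:74452858-74453157, plus strand: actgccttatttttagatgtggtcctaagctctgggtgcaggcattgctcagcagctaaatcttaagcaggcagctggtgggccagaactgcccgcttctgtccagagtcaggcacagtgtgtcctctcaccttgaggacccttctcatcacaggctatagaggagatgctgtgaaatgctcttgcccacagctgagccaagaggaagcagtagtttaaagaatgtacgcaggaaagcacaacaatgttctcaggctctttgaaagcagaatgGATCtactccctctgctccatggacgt
The Hoxd13 window has 37 CpG dinucleotides and no MboI site, the Hoxd11 window has 25 and 2, and the intergenic partner has 3 and 1. The median over 32851 RefSeq promoter windows was 7 CpG dinucleotides, and 48.0% of them held an MboI site.

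Hoxd10 and Hoxd9 had the same loop score of 5 (1.62 to 11.7), with 1 tag to the Evx2 side and 4 to the Mtx2 side for each gene. Hoxd10 (chr2:74691924-74695105) had 5 loops of 1 tag, all in part 2. They ended at an intergenic anchor 721.9 kb toward the Evx2 side and, on the Mtx2 side, at 3 intergenic anchors 214.6, 372.1 and 917.3 kb away and at Hnrnpa3 (966.3 kb). Hoxd9 (chr2:74697727-74700208) had 4 loops, with 3 tags from part 1 and 2 from part 2. A loop of 2 tags joined it to the anchor at chr2:75589808-75591883, and single tags joined it to Hnrnpa3 (961.6 kb), Ttc30b (1240 kb) and an anchor in the body of Chn1 (933.3 kb).

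Hoxd8 (chr2:74704615-74707933) had a loop score of 8 (3.45 to 15.8) from 5 loops, all in part 1. Of its tags 7 ran to the Mtx2 side and 1 to Atf2 on the Evx2 side. Its loop of 3 tags (FDR 4.3e-05) ended 432.3 kb away, at the paired starts of the long intergenic noncoding RNAs Gm13652 and 2600014E21Rik.

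Hoxd3 and Hoxd4 had the largest loop scores of the members. Hoxd3 (chr2:74711927-74748442) reached 17 (9.90 to 27.2) from 10 loops, of which 15 tags ran to the Mtx2 side. Hoxd4 (chr2:74711929-74729160) reached 13 (6.92 to 22.2) from 8 loops, of which 12 tags ran to the Mtx2 side. These scores share 11 tags, because both genes have a GENCODE start within 2 bases of each other in the anchor at chr2:74710869-74713117, and so the sum of all members' scores (60) exceeds the 49 tags of the 36 loops. That anchor was the only one in the cluster used in both parts, with 9 tags in part 1 and 2 in part 2. The annotation decides the split. With RefSeq starts Hoxd3 had a score of 11 and Hoxd4 of 0, since the RefSeq start of Hoxd4 lies at 74721978, more than 2 kb from every anchor, and Hoxd10, which has a further RefSeq start at 74684273, had 10. The intervals of all looped members overlap, so their order is not resolved at this depth.

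The strongest loop of the cluster held 5 tags (FDR 3.23e-09, part 1) and joined the shared Hoxd3 and Hoxd4 anchor to the starts of Gm13652 and 2600014E21Rik, 425.6 kb away. The promoters of Hoxd3 and Hoxd8 and the middle of this distal anchor are shown because they carry the 2 strongest Mtx2-side loops, and the promoter of Hoxd1 is shown as a start with no loop.
Hoxd8 promoter, chr2:74704365-74704664, plus strand: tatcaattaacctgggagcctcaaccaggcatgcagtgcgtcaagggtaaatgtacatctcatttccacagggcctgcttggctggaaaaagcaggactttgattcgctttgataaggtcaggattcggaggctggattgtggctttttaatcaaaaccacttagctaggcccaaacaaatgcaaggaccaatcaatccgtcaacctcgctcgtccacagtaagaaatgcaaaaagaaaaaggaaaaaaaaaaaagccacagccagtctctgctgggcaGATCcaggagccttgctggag
Hoxd3 promoter, chr2:74711743-74712042, plus strand: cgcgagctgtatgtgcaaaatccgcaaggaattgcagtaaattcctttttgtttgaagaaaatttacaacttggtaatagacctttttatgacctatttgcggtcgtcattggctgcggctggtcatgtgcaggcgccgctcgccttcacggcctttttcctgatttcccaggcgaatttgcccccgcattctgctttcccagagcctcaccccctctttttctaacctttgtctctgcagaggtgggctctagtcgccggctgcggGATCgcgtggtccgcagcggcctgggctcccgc
Hoxd1 promoter, chr2:74762730-74763029, plus strand: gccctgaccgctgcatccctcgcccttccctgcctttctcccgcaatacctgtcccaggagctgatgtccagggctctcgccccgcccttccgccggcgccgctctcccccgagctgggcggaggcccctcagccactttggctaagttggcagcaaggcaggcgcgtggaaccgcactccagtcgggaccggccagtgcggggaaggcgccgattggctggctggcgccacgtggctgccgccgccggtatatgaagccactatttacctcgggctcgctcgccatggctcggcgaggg
Gm13652 and 2600014E21Rik anchor, chr2:75137401-75137700, plus strand: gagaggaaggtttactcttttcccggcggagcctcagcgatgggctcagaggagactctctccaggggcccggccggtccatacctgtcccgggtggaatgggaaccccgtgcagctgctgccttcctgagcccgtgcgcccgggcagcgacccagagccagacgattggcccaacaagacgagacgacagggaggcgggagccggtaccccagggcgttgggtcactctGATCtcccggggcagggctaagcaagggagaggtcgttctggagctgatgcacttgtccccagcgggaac
CpG content did not fully separate looped from unlooped starts. The window held 29 CpG dinucleotides at Hoxd1 with no loop, 20 at Hoxd3 and 6 at Hoxd8, where it lies at the most upstream RefSeq start. The other windows that overlap a loop anchor held 37 (Hoxd13), 25 (Hoxd11) and 20 (Hoxd9). Those that overlap none held 16 (Evx2), 13 (Hoxd12), 4 (upstream Hoxd11 start), 22 (Hoxd10) and 4 (Hoxd4), so most of these were lower. All 10 members matched the RefSeq table, with 11 windows between 4 and 37 CpG dinucleotides.

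A second anchor at Hoxd4, chr2:74726616-74729791, lies within 2 kb of the start of Mir10b, a microRNA gene inside the annotated spans of Hoxd4 and Hoxd3. Its 2 loops held 1 tag each in part 1 and ran to the Mtx2 side, to the starts of Gm13652 and 2600014E21Rik and to chr2:75589808-75591883. The main product of Mir10b (RefSeq, chr2:74726074-74726096, plus strand) is shown with its seed, bases 2 to 8, in capitals.
mmu-miR-10b-5p: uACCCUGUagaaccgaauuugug
The antisense transcript Hoxd3os1 shared 6 of the 10 loops of Hoxd3 and 6 of the 8 of Hoxd4, which are all of its own loops. Hoxd9 shared all of its 4 loops with the antisense transcript Gm28793, Hoxd11 all of its 3 with Gm28309, and Hoxd10 all of its 5 with Gm14396, which has 9. For Hoxd13 and Hoxd8 the leading partners by the same measure, the shared loops over the loops of either gene, shared 1 loop each. Genes that share an anchor cannot be told apart by these loops.

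**Figure D2:**
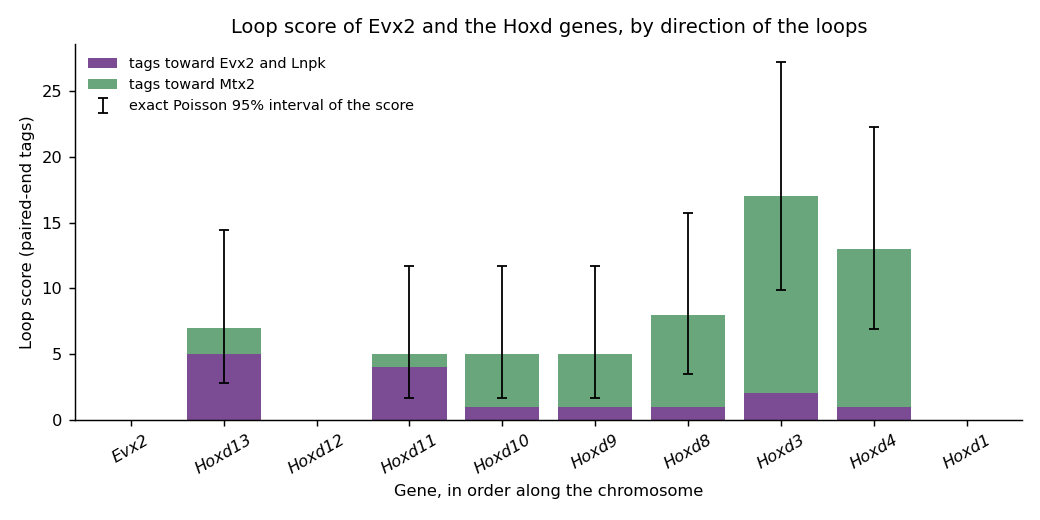
Bars give the loop score in tags of each gene in order along the chromosome, split by the side to which the loops ran, with exact Poisson 95% intervals. Hoxd13 and Hoxd11 had 5 of 7 and 4 of 5 tags on the Evx2 side, and Hoxd10, Hoxd9, Hoxd8, Hoxd3 and Hoxd4 had between 1 and 2. Hoxd3 and Hoxd4 share 11 tags.

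Toward the Hoxd1 end of the cluster, a smaller share of the tags ran to the Evx2 side. The anchors from Hoxd13 to Hoxd10 sent 10 of 18 tags to the Evx2 side (55.6%, Wilson 33.7 to 75.4), and the anchors from Hoxd9 to Hoxd3 sent 5 of 33 (15.2%, 6.65 to 30.9). The place of this division was chosen after the values were seen, so no test of it is given. Within part 1 the shares were 3 of 5 tags (60.0%, 23.1 to 88.2) and 3 of 28 (10.7%, 3.71 to 27.2). Within part 2 they were 7 of 13 (53.8%, 29.1 to 76.8) and 2 of 5 (40.0%, 11.8 to 76.9), with intervals that overlap widely. The parts also covered different genes, as 13 of the 18 tags at the Hoxd13 end came from part 2 and 28 of the 33 tags at the other end came from part 1. Most Mtx2-side tags of the anchors from Hoxd9 to Hoxd3 ran to 3 distal anchors, described next, with tags in part 1 only. The shares of the 2 groups without these anchors were not computed. Over the whole cluster the Evx2 side took 6 of 33 tags in part 1 (18.2%, 8.61 to 34.4) and 9 of 18 in part 2 (50.0%, 29.0 to 71.0).

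On the Mtx2 side, 3 distal anchors took 24 of the 36 tags, all in part 1. The first was the anchor at the starts of Gm13652 and 2600014E21Rik (chr2:75136192-75138909), 371 kb beyond the cluster and 267 kb from the nearest protein-coding start. It took 12 tags in 5 loops, from Hoxd3 and Hoxd4 (5), Hoxd8 (3), the downstream Hoxd3 anchor (2), Hoxd4 with Mir10b (1) and Hoxd13 (1). All its loops together held 15 tags, so 80.0% of its tags led to the HoxD cluster. The next was the intergenic anchor at chr2:75589808-75591883, 825 kb beyond the cluster, with 6 tags in 4 loops (54.5% of its 11 tags). A loop of 1 tag in part 2, from Hoxd3 and Hoxd4, ended at an overlapping anchor. The last was the anchor at the start of Nfe2l2, which encodes the oxidative stress regulator NRF2, with 6 tags in 4 loops (66.7% of its 9 tags). This anchor also holds the start of the transcript E030042O20Rik. The other Mtx2-side anchors took 12 tags, against 15 over all anchors of the Evx2 side. The 3 leading anchors were set apart by their tags and on this side only, so that choice shaped this comparison.

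The overlap of the intergenic anchors of the 2 parts at this place holds a match to the CTCF-like core, on the minus strand. It is shown, read along that strand, with the core in capitals because it was the only match in the 3 leading Mtx2-side anchors apart from 1 at Nfe2l2.
Intergenic anchor, chr2:75590397-75590437, minus strand: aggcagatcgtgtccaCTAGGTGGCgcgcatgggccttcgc
The core CNAGGNGGC was found in 13 of the 23 distal anchors (56.5%, Wilson 36.8 to 74.4) and in 2 of the 12 cluster anchors, those at Hoxd11 and Hoxd8 (16.7%, 4.70 to 44.8), against 44.9% of all 16864 anchors of the list. Overlapping anchors of the 2 parts count separately here, so some distal matches were counted more than once, and the intervals take no account of this. Distinct matches in distal anchors ran along the plus strand in 5 of 7 cases on the Evx2 side and along the minus strand in 6 of 7 cases on the Mtx2 side. Over the list, 49.6% of matches were on the plus strand both in anchors that were only the lower end of loops and in those that were only the upper end. These are counts of letters, and binding of CTCF was not measured here. MboI sites were present in every anchor of the HoxD loops. Those in the cluster held 2 to 6 (median 3.5) and the distal ones 1 to 9 (median 4), against a median of 5 over the list. Per kb these were 1.66 and 1.5 sites, against 1.8 over the list.

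Of the Evx2-side anchors, 3 of 9 lay within 2 kb of a TSS. The start of Atf2, which encodes a basic leucine zipper transcription factor, took 3 tags, from Hoxd13 in part 2 and from Hoxd8 and the shared Hoxd3 and Hoxd4 anchor in part 1. The same distal anchor also holds the start of the long intergenic noncoding RNA Gm10822. The start of Atp5g3, which encodes a subunit of the mitochondrial ATP synthase, took 2 tags in part 1, from Hoxd13 and from the downstream Hoxd3 anchor. The start of Sp9, a zinc finger transcription factor gene, took 1 tag from a cluster anchor with no member TSS within 2 kb (chr2:74699844-74701398). No loop reached Lnpk, the coding gene next to Evx2, from the cluster, although Lnpk had 4 loops of its own with 5 tags. Of these, a loop of 2 tags passed over the HoxD cluster to the intergenic anchor at chr2:75589808-75591883.

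Of the 13 flanking genes followed, 6 had a loop to the cluster. Besides Atf2, Atp5g3 and Nfe2l2, they were Hnrnpa3, which encodes an RNA-binding protein and took 3 tags from Hoxd10, Hoxd9 and Hoxd8, Mtx2, which encodes a mitochondrial import protein and took 1 tag from Hoxd3 and Hoxd4, and Ttc30b, which encodes a protein of ciliary transport and took 1 tag from Hoxd9. The anchors at Hnrnpa3 also hold the start of the microRNA gene Gm24574. Mtx2 is the nearest coding gene on its side, 60.66 kb from the cluster, yet the 1 tag was in part 2 with an FDR of 0.048. The other 7, Chn1, Chrna1, Wipf1, Lnpk, Agps, Ttc30a1 and Pde11a, had none, and Chrna1, Wipf1, Ttc30a1 and Pde11a had no loop to any place. A total of 7 loops with 8 tags joined the flanks over the cluster without touching it.

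Loops between the same places were not found in both parts. When overlapping anchors were joined, the 38 loops linked 10 cluster regions with 21 distal regions in 38 different pairs, and 0 of the pairs occurred in both parts. Repeated loops, a different measure from shared region pairs, numbered 230 among the 24244 of the list and 0 among the HoxD loops. The share of region pairs or regions found in both parts was not computed over the list. Whether the lack of shared pairs is particular to HoxD is therefore not known. Of the distal regions 3 had tags in both parts, those at Atf2, at Hnrnpa3 and at chr2:75588538-75591883, and of the cluster regions 3, those at Hoxd13, at Hoxd9 and at the shared Hoxd3 and Hoxd4 starts.

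**Figure D3:**
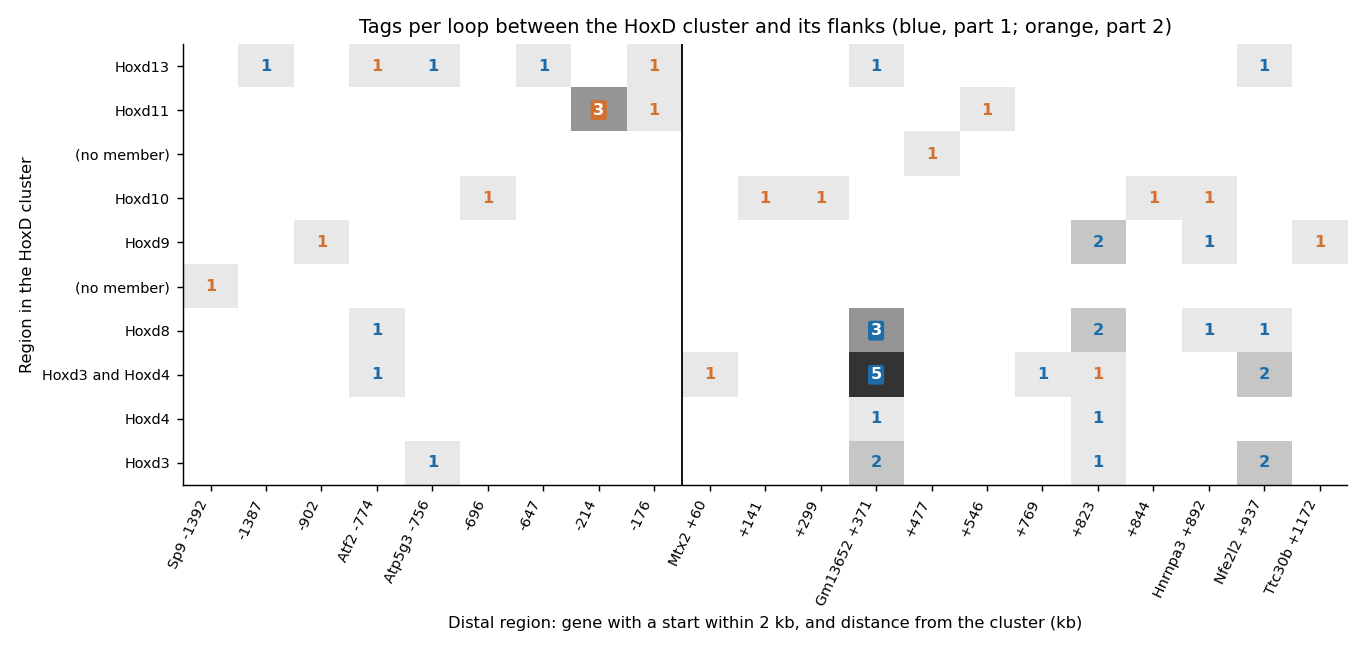
Numbers give the tags of each loop between a region of the HoxD cluster (rows, Hoxd13 end at the top) and a distal region (columns, with distance from the cluster in kb and the gene whose start lies within 2 kb), with the color of the part. Row labels give member genes. The columns at Gm13652, at +823 kb and at Nfe2l2 hold 25 of the 51 tags, and the loop of 3 tags from Hoxd11 is the darkest cell left of the line.

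Distal anchors of member loops lay both at and away from promoters, and which were more depended on how they were counted. Of 21 distinct distal anchors of member loops, 8 lay within 2 kb of the TSS of a gene that is no member (38.1%, Wilson 20.8 to 59.1). Over all looped promoters, 12175 of 15449 distal anchors lay near a TSS (78.8%, 78.2 to 79.4). The intervals do not overlap, but anchors in 1 gene neighbourhood are not independent. The share among member loops was 52.2% (33.0 to 70.8) with a window of 5 kb, 55.6% (26.7 to 81.1) in part 1, 30.8% (12.7 to 57.6) in part 2 and 52.8% (37.0 to 68.0) when loops were counted in place of distinct anchors. By tags, 29 of the 51 of the cluster (56.9%) ended at an anchor near a TSS. By distinct anchors of all loops of a cluster, the share was 39.1% (22.2 to 59.2) in HoxD and 44.4% (24.6 to 66.3) in HoxA, with intervals that overlap, against 67.4% (53.0 to 79.1) in HoxB and 75.6% (60.7 to 86.2) in HoxC. The flanks up to the farthest anchor held 10 protein-coding genes in 1398 kb on the Evx2 side and 5 in 1175 kb on the Mtx2 side.

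The mouse has 4 Hox clusters, and they fell into a pair of patterns in these tumors. HoxD and HoxA had no loop between anchors inside the cluster, whereas HoxB had 20 such loops with 142 tags and HoxC had 30 with 605. As shares of all tags of a cluster, this was 0 of 51 for HoxD, 0 of 53 for HoxA, 49.8% for HoxB (Wilson 44.1 to 55.6) and 71.3% for HoxC (68.1 to 74.2). In HoxB both parts held inside tags, 74 and 68, and in HoxC 542 and 63. HoxD also had the fewest tags leaving it, 51 against 53 (39.7 to 69.3), 143 (120.5 to 168.5) and 244 (214.3 to 276.6) for HoxA, HoxB and HoxC, with intervals of HoxD and HoxA that overlap. The median span of leaving loops was 821.9 kb for HoxD, 453.9 kb for HoxA, 419.7 kb for HoxB and 283.3 kb for HoxC. The median loop score of the Hox genes was 5 in HoxD, 4 in HoxA, 50.5 in HoxB and 164 in HoxC.

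The absence of inside loops is limited by how the list was made. The 12 cluster anchors of HoxD form 35 pairs within a part whose midpoints lie at least 5 kb apart, and 0 of them were joined (Wilson upper limit 9.89%). Over the list, 5.42% of 22932 anchor pairs 5 to 100 kb apart were joined, a share within that limit, while in HoxB 20 of 92 pairs (21.7%) and in HoxC 30 of 104 (28.8%) were. In HoxA 0 of 29 pairs were joined (Wilson upper limit 11.7%). Listed loops shorter than 100 kb had at least 6 tags in part 1 and 2 in part 2, and those shorter than 20 kb at least 8 and 4. Contacts with fewer tags at these distances were therefore not listed. The HoxD pairs lay 6.78 to 67.2 kb apart in part 1 and 5.11 to 44.1 kb in part 2. HoxD anchors were also narrower, with a median of 2.18 kb against 2.38 kb in HoxA, 2.96 kb in HoxB and 3.18 kb in HoxC, and the part of width in the result was not tested.

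**Figure D4:**
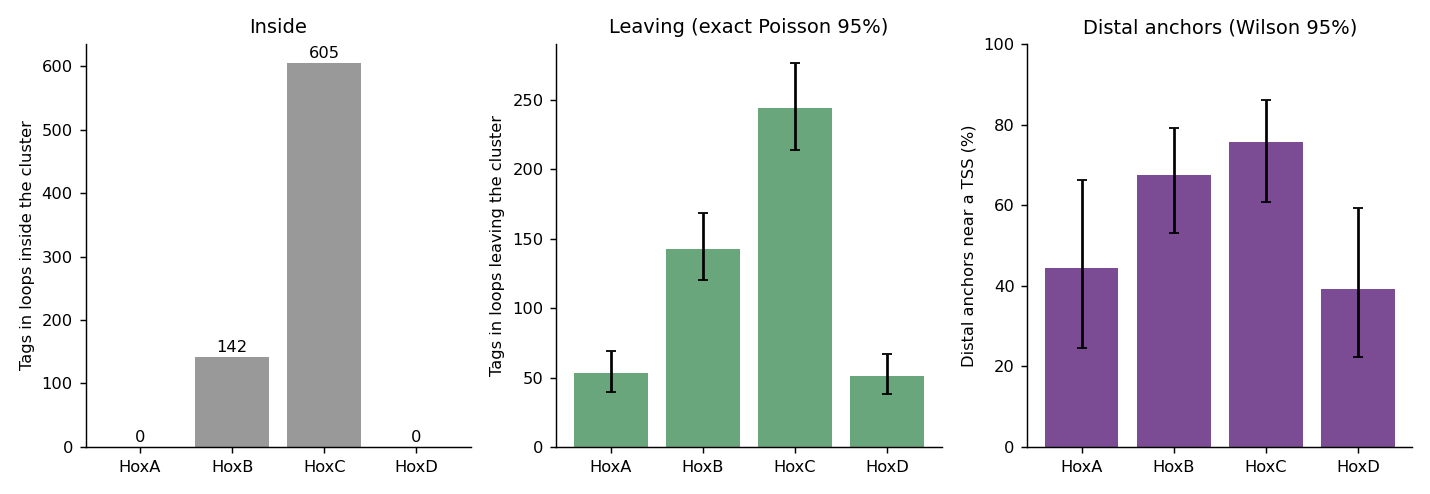
Bars compare the 4 Hox clusters by tags in loops inside the cluster (left), tags in loops leaving it with exact Poisson 95% intervals (middle) and the percentage of their distal anchors within 2 kb of a TSS with Wilson 95% intervals (right). HoxD and HoxA had 0 inside tags, against 142 in HoxB and 605 in HoxC.

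Gene by gene, in paralog groups 3, 4, 9, 10, 11 and 13 the HoxD member had a loop score nearer that of its HoxA counterpart than that of the HoxB or HoxC gene. Among the group 13 genes, Hoxd13 had a loop score of 7, Hoxa13 of 9, Hoxc13 of 2 and Hoxb13 of 0, and this was the only group with a HoxC gene in which the HoxD member exceeded it. Among the group 4 genes, Hoxd4 had 13 and Hoxa4 6, against 63 for Hoxb4 and 72 for Hoxc4. Among the group 11 genes, Hoxd11 had 5 and Hoxa11 6, against 264 for Hoxc11. Hoxd3, with 17, lay above Hoxa3, which had none, and below Hoxb3, which had 80. The Poisson intervals of Hoxd13 and Hoxa13 overlap (2.81 to 14.4 and 4.12 to 17.1), as do those of Hoxd4 and Hoxa4 (6.92 to 22.2 and 2.20 to 13.1).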

How the data were processed

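H3K27ac HiChIP was measured in 2 hSS2 mouse SyS tumors. Reads were aligned by the authors against mm10 in HiC-Pro, hichipper (with Mango statistics) was used to find loops, and the tumors were then merged. The methods give an FDR threshold of 0.05 and a legend one of 0.01, and the highest FDR in the list is 0.05. Per loop the deposited file has a raw, unnormalized count of tags and the FDR that the authors' caller gave each loop, which is an adjusted p-value. How counts were merged is not given in the sources used here. Whether tags are independent molecules is not stated, so intervals cover counting error only. Without a header, its columns were taken as the bounds of each anchor, and positions were made to start at 1. ChIP-seq data were not analysed here.

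TSSs were those of GENCODE vM21 (GRCm38, the assembly that mm10 denotes). An anchor belonged to a gene when it overlapped 2 kb on either side of a TSS, and the loop score was the sum of its tags. Cluster bounds ran from the first to the last base of the protein-coding Hox genes. With 1 merged list no test was made, and tag sums have exact Poisson and shares Wilson 95% intervals. Sequences came from RefSeq (GRCm38.p6). The members, the 13 flanking genes and the alternatives were chosen with earlier results of these data known. Named genes were the 10 members, the flanking genes, transcripts within the cluster (among them Mir10b, Haglr and Hoxd3os1), genes at the distal anchor of a member loop with at least 4 tags and the gene sharing most loops with each member. Sp9, the other Hox genes and the transcripts that share the anchors of Nfe2l2, Atf2 and Hnrnpa3 were named outside that rule after their values were seen. Alternatives were windows of 1 and 5 kb, protein-coding TSSs, RefSeq TSSs, an FDR under 0.01 or 0.001, at least 4 tags, loops up to 1 Mb, no loops under 20 kb, repeated loops counted once, each part alone, loops in place of tags and bounds that take in Evx2. The scripts were checked with loops planted at known places, and all planted tags were recovered. The tools were pandas 2.3.3, scipy 1.17.1, statsmodels 0.14.6, matplotlib 3.10.9 and numpy 2.4.6 under Python 3.11.15.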

Additional observations from a re-analysis of the deposited data

How the results depend on the processing

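The 36 loops and 49 tags at member promoters fell to 8 loops and 21 tags with an FDR under 0.01, an alternative added after seeing the data, to 7 loops and 19 tags with an FDR under 0.001 and to 1 loop and 5 tags with at least 4 tags. Part 1 alone gave 22 loops, and part 2 alone gave 14 loops with 16 tags. The share of tags leaving toward the Evx2 side, 29.4%, was 14.3% with an FDR under 0.01, 15.8% with an FDR under 0.001, 0 of 5 tags (0.0%) with at least 4 tags, 18.2% in part 1 and 50.0% in part 2. It was 55.6% without the 3 distal anchors with most tags on the Mtx2 side, an alternative chosen after seeing the data whose direction the choice of anchors fixed. The share of distal anchors near a TSS of a gene that is no member, 38.1%, was 1 of 1 (100%) with at least 4 tags, 55.6% in part 1 and 52.2% with a window of 5 kb, 52.8% by loops, and 2 of 4 (50.0%) with an FDR under 0.01 and with one under 0.001, so whether most lay away from promoters changed with the setting. Under the remaining alternatives it lay between 30.8% and 38.1%. The share inside the cluster was 0 under every alternative run. Except for the bounds that take in Evx2, these alternatives only drop or recount loops of the list, so they could not have changed it. Of 120 values of member loop scores under alternatives, 86 stayed within 1.5 times the value given, and the 34 that did not came from the FDR, the tag minimum, each part alone, the RefSeq starts and the 5 kb window. All 34 belong to the looped members. The 86 include every value of Evx2, Hoxd12 and Hoxd1, which stayed at 0. Only the 5 kb window and the RefSeq starts could have raised these scores, since the other alternatives add no loops or starts. They also include the alternatives without loops under 20 kb and without repeats, which could change nothing because HoxD has no such loops. The protein-coding TSSs could not change a member score either, since every member start belongs to a protein-coding gene. The count of 86 therefore overstates how well the scores withstood a change of setting. No paired analysis was possible because the tumors are merged in 1 list. Depth limits these results, since most loops rest on 1 tag. The cause of the differences between the parts was not tested.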
